A study of Mus musculus with 21 samples.

Results

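Solute carriers are membrane proteins that move sugars, amino acids, organic acids, nucleosides, metals and ions across the plasma membrane and the membranes of organelles. The genes described here carry symbols that begin with Slc and a family number, and were kept where the unlogged expression value reached 5 in at least 3 of 21 libraries. The table listed 270 such symbols, and 128 of them met the rule. Slc4a1, Slc11a2, Slc25a37, Slc25a38 and Slc40a1 were left out by name. Of the 128, Slc9a3r1, Slc4a1ap and Slc7a6os name proteins that bind or neighbour a carrier and are not carriers themselves.

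The libraries came from sorted spleen cells of C57BL/6 mice. Ter119+CD71+ cells, either CD45+ or CD45-, were sorted in 3 conditions: tumor-bearing, anemic and neonatal. CD11b+Gr1+ cells, named myeloid-derived suppressor cells (MDSC), came from the tumor-bearing condition alone. There were 3 libraries for each of the 7 groups. The study set the CD45+ cells, described by its title as erythroid-like progenitors, against the other sorted cells and across the 3 conditions. Ter119 is a surface antigen of maturing red cells, CD71 is the transferrin receptor, CD45 is the common antigen of white blood cells, and CD11b and Gr1 mark myeloid cells. The tumor, the cause of the anemia, the ages, and whether the 3 libraries of a group came from separate animals are not given in the sources used here, so the p-values below measure only the spread between libraries, which may be technical.

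As background, a red cell precursor takes up glycine for haem and other amino acids for globin, and its plasma membrane and mitochondria carry a distinct set of transporters while haemoglobin accumulates. Granulocytes and macrophages rely on glucose uptake and on lactate export, and their phagosomes and lysosomes hold metal and peptide carriers. Several carriers need a partner to reach the membrane, such as basigin for the lactate carriers and Slc3a2 for Slc7a5.

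The deposited values are log2 expression values on a scale not named in the sources used here, with no read counts, so the sequencing depth is unknown. Values below are unlogged (2 raised to the deposited value, blanks taken as 0), fold changes are on the log2(value + 1) scale with the standard error of the limma fit, and levels of different genes are not ranked against each other. The unlogged values of a library summed to between 227942 and 349254, and 12289 to 13946 genes had a value. Ptprc, which encodes CD45, was 1.23 to 5.5 in the CD45- libraries and 86.7 to 477 in the CD45+ libraries. The summed value of 10 erythroid marker genes was 2451 to 4870 in the CD45- libraries, 184 to 1111 in the CD45+ libraries and 51.6 to 94.4 in the MDSC libraries. Summed over 12 neutrophil and MDSC marker genes, the value was 9.15 to 378 in the CD45- libraries, 11803 to 30313 in the tumor CD45+ libraries, 491 to 2814 in the anemia CD45+ libraries, 9702 to 12207 in the neonatal CD45+ libraries and 46559 to 74558 in the MDSC libraries. In each condition all 10 erythroid markers were lower and all 11 tested neutrophil markers higher in CD45+ than in CD45- cells, and so were all 8 B cell markers (adjusted p under 0.05, limma), whose summed value was 128 to 1028 in CD45+ and 2.39 to 14.3 in CD45- libraries. Higher in CD45+ cells were also 9, 9 and 7 of 9 T and NK cell markers in tumor-bearing, anemic and neonatal mice, 8, 7 and 8 of 10 monocyte and macrophage markers, 5, 2 and 5 of 5 mast cell, basophil and eosinophil markers, and 5 of 5 dendritic cell markers each time. These marker differences move with every contrast of CD45+ against CD45- cells given here, and their part in the carrier results was not tested. In sorted bulk samples, fewer cells of a type and less RNA per cell cannot be told apart. Replicate 3 stood apart from replicates 1 and 2 in several groups, and counts are given without it, as are the values of genes for which that library is pointed out.

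Most solute carriers differed between CD45+ and CD45- cells of the same condition. In tumor-bearing mice 80 of the 128 were higher and 22 lower in CD45+ cells, in anemia 68 and 22, and in neonates 74 and 23 (limma, Benjamini-Hochberg over all 11192 tested genes, adjusted p under 0.05). That is 79.7%, 70.3% and 75.8% of the carriers, against 62.7%, 60.4% and 61.7% of all tested genes that met the same level rule and 61.1%, 58.7% and 59.9% of all tested genes. Of the genes at the level rule 49.7%, 46.9% and 49.5% were higher and 13.0%, 13.5% and 12.2% lower. The median log2 fold change of the 128 was 1.10, 0.89 and 1.05, and that of all tested genes 0.75, 0.68 and 0.75, so the libraries as a whole were shifted toward CD45+ cells. With each library scaled by the median ratio of its genes the splits became 50 higher and 33 lower, 44 and 32, and 48 and 35, and with quantile normalization 41 and 37, 40 and 38, and 41 and 36. Without replicate 3 of every group the splits were 82 and 24, 78 and 26, and 77 and 24. The level rule itself favours genes that are high on one side: 52 members reached the level only in CD45+ or MDSC libraries and 5 only in CD45- libraries. Among the 71 that reached it on both sides, 29 were higher and 20 lower in the tumor contrast, 19 and 19 in anemia and 24 and 20 in neonates. The lower share of these 71 was 28.2%, 26.8% and 28.2%, and that of the 5945 tested genes at level on both sides was 16.8%, 17.5% and 15.7%.

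Across the 3 conditions the calls mostly repeated. In all 3 conditions 62 members were higher in CD45+ cells (48.4%, against 37.8% of genes at the level rule) and 18 were lower (14.1%, against 8.5%). No member was called in opposite directions, 18 were called in no condition, 22 were higher in 1 or 2 conditions and 8 were lower in 1 or 2. All 18 lower members were also called lower in all 3 conditions under both other scalings, while 27 of the 62 higher members kept that call under both. Both scalings take out the library-wide shift toward CD45+ cells, which itself favours lower calls and removes higher ones. Members lower in all 3 numbered 26 with median-ratio scaling and 29 with quantile normalization. The kept calls therefore do not show that the lower set is the firmer one. In the plot of all members by library, the CD45- libraries form a block with a small set of high rows and many low rows, and the CD45+ and MDSC libraries share most of their high rows.

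**Figure D1:**
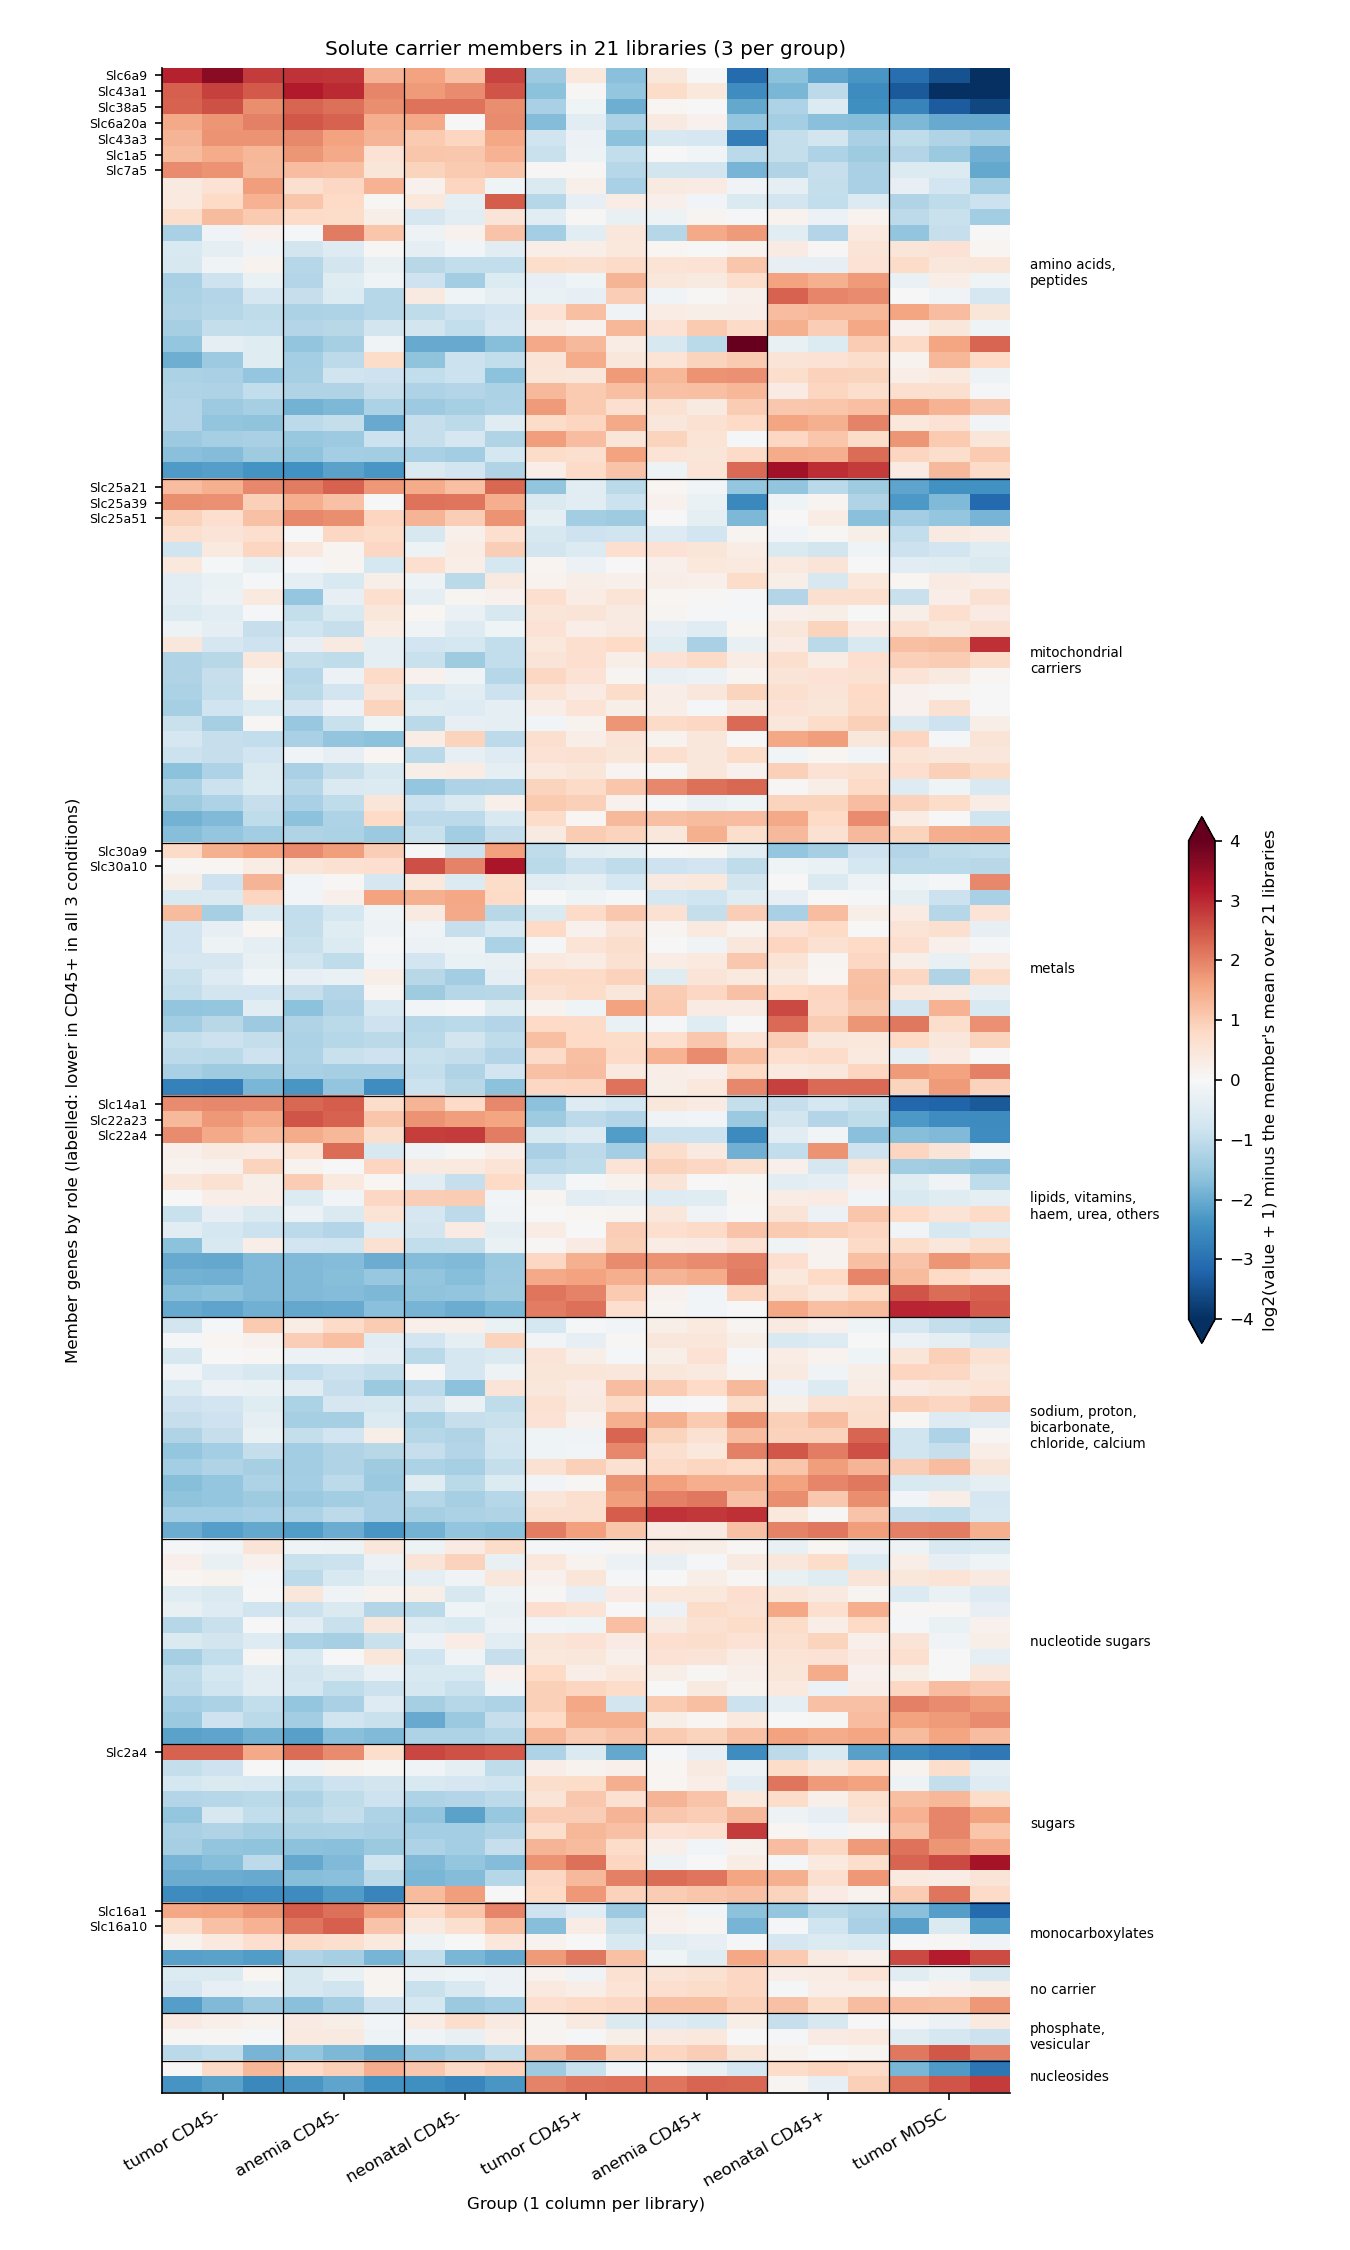
Each row is 1 of the 128 solute carrier genes, grouped by role, and each column is 1 of the 21 libraries, with the colour giving log2(value + 1) minus that gene's mean over all libraries. The 18 genes lower in CD45+ cells in all 3 conditions are labelled and stand out as rows that are high in the 9 CD45- libraries.

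Of the 18 carriers lower in CD45+ cells in all 3 conditions, 7 were grouped as amino acid carriers, 3 are mitochondrial and 2 belong to the lactate carrier family. The 7 include Slc43a3, which carries purine bases, and the 2 include the aromatic amino acid carrier Slc16a10. Slc6a9, the glycine transporter that supplies haem synthesis, had unlogged values of 172, 247 and 139 in the 3 tumor CD45- libraries, compared with 6.44, 26.4 and 5.45 in tumor CD45+ cells. Its values were 149, 147 and 51.5 against 26.7, 19.1 and 1.4 in anemia, and 61, 44.6 and 132 against 5.57, 3.76 and 3.07 in neonates. The groups did not overlap in any condition, and its log2 fold changes of CD45+ against CD45- cells were -4.05 ± 0.74 (adjusted p = 1.71e-04), -3.26 ± 0.74 (adjusted p = 0.00121) and -3.84 ± 0.74 (adjusted p = 2.95e-04) in tumor-bearing, anemic and neonatal mice. Slc43a1, a carrier of large neutral amino acids, ran from 102 to 284 over the 9 CD45- libraries and from 4.51 to 51.9 over the 9 CD45+ libraries, with log2 fold changes of -3.58, -3.14 and -3.82. Slc38a5, which carries glutamine and glycine, was 45.6 to 73.7 in CD45- and 1.34 to 12.6 in CD45+ libraries, with log2 fold changes of -3.39, -2.79 and -3.48. Within the anemia CD45+ group the third library held the lowest value of each of these 3 genes: Slc43a1 was 51.9, 41.5 and 4.69 and Slc38a5 12.6, 11.7 and 2.09, and the summed erythroid markers were 1111, 814 and 184 in the same order. Without replicate 3 of every group the anemia log2 fold changes were -2.66 ± 0.51 for Slc6a9, -2.50 ± 0.47 for Slc43a1 and -2.23 ± 0.32 for Slc38a5, each past the threshold.

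Slc7a5 and Slc1a5, general amino acid carriers of growing cells, followed the same order with smaller changes. Other amino acid carriers went the other way, and Slc38a1, Slc38a2, Slc43a2 and Slc7a6 were higher in CD45+ cells in all 3 conditions without scaling. Slc7a5, which exchanges leucine and other large amino acids, was 174, 165 and 115 in tumor CD45- and 48.7, 48.5 and 20.6 in tumor CD45+ libraries, and its log2 fold changes were -2.00, -2.08 and -2.14 in tumor-bearing, anemic and neonatal mice. Slc1a5, the main glutamine and alanine exchanger of many dividing cells, had log2 fold changes of -2.06, -1.70 and -2.39, with CD45- values of 75.2 to 172 and CD45+ values of 17.8 to 48.8. Slc3a2, the heavy chain that brings Slc7a5 to the membrane, was called in 1 condition: it was lower in CD45+ cells in tumor-bearing mice (log2 fold change -1.24 ± 0.29, adjusted p = 0.00148), and its log2 differences of -0.64 ± 0.29 in anemia (adjusted p = 0.067) and 0.22 ± 0.29 in neonates (adjusted p = 0.535) did not pass the threshold. Slc6a20a, a proline carrier, had log2 fold changes of -2.91, -2.42 and -2.71, and Slc43a3, which carries purine bases, of -2.54, -2.98 and -2.15. The 26 members grouped as amino acid and peptide carriers include Slc43a3 and the heavy chain Slc3a2 and leave out Slc16a10, grouped with the lactate carriers. Of these, 14 were higher and 9 lower in CD45+ cells of tumor-bearing mice, 13 and 7 in anemia and 14 and 9 in neonates. The higher shares of 53.8%, 50% and 53.8% lay near the 49.7%, 46.9% and 49.5% of genes at the level rule. The lower shares were 34.6%, 26.9% and 34.6%, against 13.0%, 13.5% and 12.2%. Median-ratio scaling made the tumor split 11 and 10, and quantile normalization 10 and 10.

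**Figure D2:**
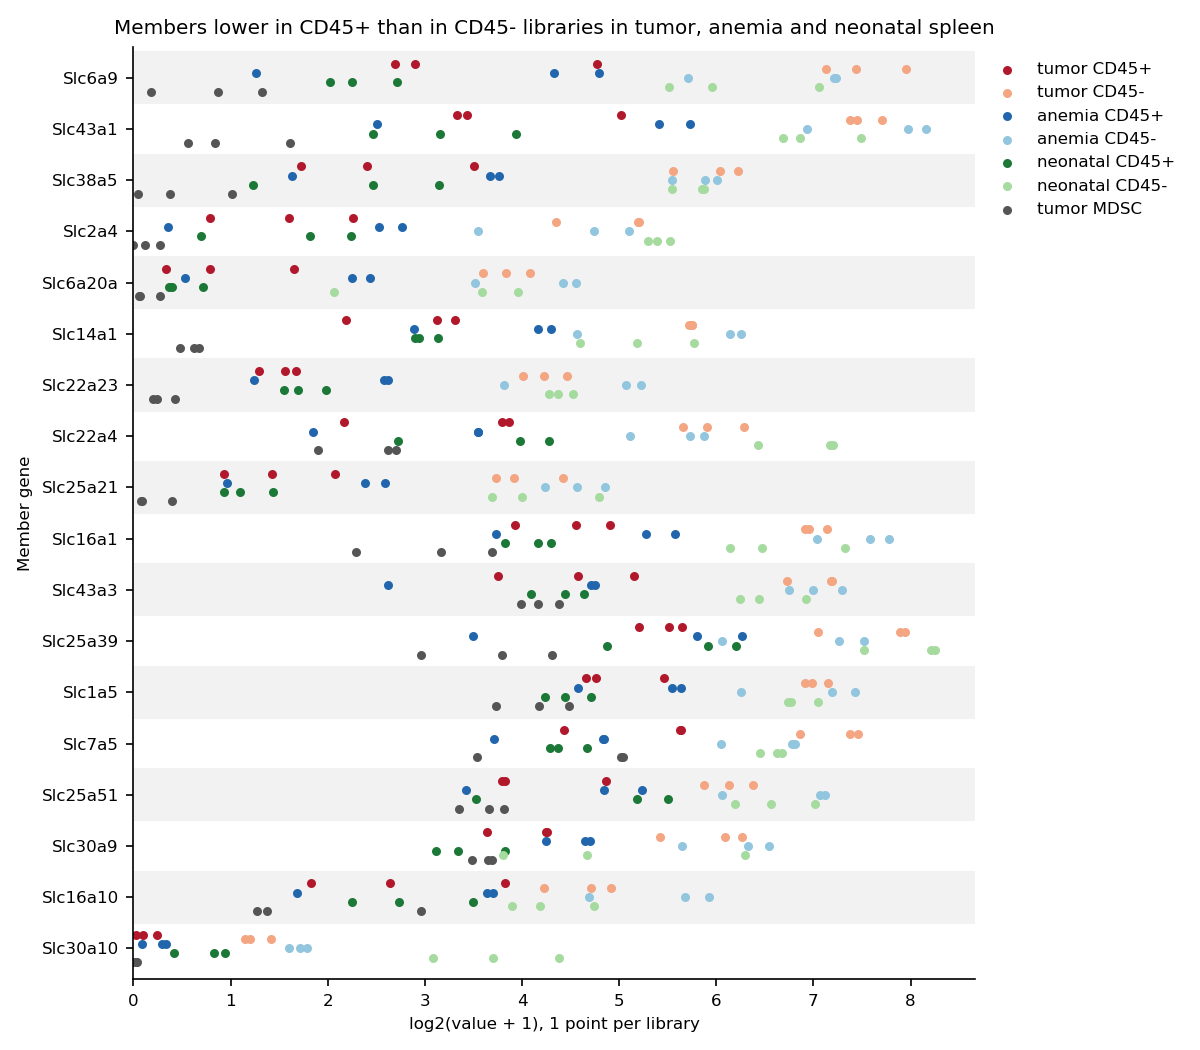
Each row is 1 of the 18 carriers lower in CD45+ cells in all 3 conditions, each point is 1 library coloured by group, and the horizontal axis gives log2(value + 1). Slc6a9, for example, has unlogged values between 44.6 and 247 in the 9 CD45- libraries and between 1.4 and 26.7 in the 9 CD45+ libraries.

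Upstream sequence was available for 102 of the 128 members, matched by symbol to the RefSeq promoter table of build GRCm38.p6, which is not the mm8 build that the submitters' processing notes name. The 250 bases before each start were searched on both strands for AGATAA or TGATAA (letters bound by GATA factors), GAGGAAGT (PU.1 and other ETS factors) and CACACCC (KLF factors). Some genes have several annotated starts and so several promoters. The KLF letters stood in 5 of 15 promoters from 12 members lower in all 3 conditions (33.3%), in 4 of 67 promoters from 52 members higher in all 3 (5.97%), and in 6.93% of all 32851 promoters in the table. The GATA letters stood in 13.3%, 11.9% and 16.6% of the same sets, and the ETS letters in 0 of 15, 1.49% and 2.44%. These are matches of letters in a window and not sites at which binding was measured. The stretches around the matches are printed for the lower members that hold one and for Slc2a1, whose CD45- level depended on the condition, 5′ to 3′ on the gene's strand with the matched letters of either orientation in capitals.
Slc43a1: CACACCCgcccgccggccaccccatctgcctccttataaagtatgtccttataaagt
Slc22a4: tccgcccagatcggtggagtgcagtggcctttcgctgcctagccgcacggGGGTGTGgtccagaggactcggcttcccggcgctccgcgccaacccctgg
Slc25a21: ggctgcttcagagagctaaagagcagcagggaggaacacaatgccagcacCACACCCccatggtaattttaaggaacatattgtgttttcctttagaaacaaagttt
Slc30a9: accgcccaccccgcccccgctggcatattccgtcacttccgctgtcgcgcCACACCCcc
Slc30a10: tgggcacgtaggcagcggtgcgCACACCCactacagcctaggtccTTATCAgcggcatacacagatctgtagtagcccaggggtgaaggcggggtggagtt
Slc16a1: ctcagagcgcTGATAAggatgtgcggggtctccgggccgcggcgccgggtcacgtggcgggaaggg
Slc2a1: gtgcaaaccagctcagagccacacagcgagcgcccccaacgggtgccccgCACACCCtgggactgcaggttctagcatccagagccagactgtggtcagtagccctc
They lie at chr2:84840073-84840129 (plus strand), chr11:54028105-54028204 (minus), chr12:57160651-57160757 (minus), chr5:67306896-67306954 (plus), chr1:185454598-185454698 (plus), chr3:104638414-104638479 (plus) and chr4:119108551-119108657 (plus), all upstream of an annotated start. Slc30a10 holds both the KLF letters and TTATCA, which is TGATAA read on the opposite strand, whereas the Slc16a1 stretch holds the GATA letters only.

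Urea, ergothioneine and lactate carriers were also lower in CD45+ cells in all 3 conditions. Slc14a1, the urea channel that carries the Kidd blood group, had unlogged values of 51.6, 52.8 and 52.7 in tumor CD45- libraries, against 3.55, 8.91 and 7.75 in tumor CD45+ libraries. Its log2 fold changes were -2.86, -1.87 and -2.19 in tumor-bearing, anemic and neonatal mice. Slc22a4, which imports ergothioneine, an antioxidant held by red cells, was 143, 146 and 85.1 in neonatal CD45- and 14.7, 18.4 and 5.62 in neonatal CD45+ libraries, and its log2 fold changes were -2.68, -2.59 and -3.27. Slc22a23, an organic ion carrier with no settled substrate, had log2 fold changes of -2.73, -2.55 and -2.65. Slc16a1, the proton-linked lactate carrier MCT1, had unlogged values of 119.7, 123 and 140.2 in tumor CD45- cells, against 22.5, 29 and 14.2 in tumor CD45+ cells. Its log2 fold changes over the conditions were -2.54, -2.60 and -2.54. The aromatic amino acid carrier Slc16a10 had log2 fold changes of -1.85, -2.42 and -1.45.

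The lactate exporter Slc16a3 (MCT4), typical of glycolytic cells, moved the other way from Slc16a1. In tumor-bearing mice it was 17.2, 23.2 and 11.8 in CD45+ cells, 0.241, 0.269 and 0.19 in CD45- cells and 34, 48.3 and 33.1 in MDSC. The log2 fold changes of CD45+ against CD45- cells were 3.85 ± 0.44 in tumor-bearing mice, 1.76 ± 0.44 in anemia and 2.14 ± 0.44 in neonates, each past the threshold. The anemia call was lost under median-ratio scaling and quantile normalization, and the neonatal call under quantile normalization. In anemia the third CD45+ library carried most of the value, at 3.98, 3 and 15.6. Its anemia value without replicate 3 of every group was 0.93 ± 0.32 (adjusted p = 0.0222, limma). Slc16a6, a carrier of ketone bodies and taurine, had log2 differences of -0.55, -0.88 and -0.67, of which those in anemia and neonates passed.

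Sugar carriers were mostly higher in CD45+ cells: without scaling 9 of 10 were higher in tumor-bearing mice and 8 of 10 in anemia and in neonates. In each condition 1 was lower. The higher shares were 90%, 80% and 80%, against 49.7%, 46.9% and 49.5% of genes at the level rule. The lower share was 10% each time, against 13.0%, 13.5% and 12.2%. The level rule itself favoured higher calls here, since Slc37a3 and Slc50a1 stayed under the level of 5 in every CD45- library. Role counts were not split by the side on which members reached the level. Under quantile normalization the counts were 7 and 1 in tumor-bearing mice and 6 and 2 in anemia and in neonates. With median-ratio scaling they were 8 and 1, 8 and 2, and 7 and 2. Slc2a4, the insulin-responsive glucose transporter GLUT4, was the lower gene each time without scaling. It was 35.9, 35.7 and 19.5, 33.2, 25.8 and 10.7 and 45, 40.9 and 38.4 in the CD45- libraries of tumor-bearing, anemic and neonatal mice, and 2.04, 3.8 and 0.732, 5.81, 4.76 and 0.282 and 2.52, 3.74 and 0.615 in the matching CD45+ libraries. Its log2 fold changes were -3.37 ± 0.58 (adjusted p = 8.85e-05), -2.58 ± 0.58 (adjusted p = 0.00101) and -3.82 ± 0.58 (adjusted p = 2.68e-05).

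Slc2a3 (GLUT3), a high-affinity glucose transporter of white blood cells and neurons, was 45.4, 60.3 and 23 in tumor CD45+, 10.5, 12.3 and 15.3 in anemia CD45+, 11.9, 16.3 and 20.7 in neonatal CD45+ and 65.9, 83 and 133 in MDSC libraries, and 2.2 to 6.64 over the 9 CD45- libraries. Its log2 fold changes were 3.16, 1.57 and 2.03, of which the anemia value did not pass under quantile normalization. Slc50a1, an intracellular sugar carrier, had log2 fold changes of 3.38, 3.46 and 2.84, and the urate carrier Slc2a9 of 2.64, 1.68 and 2.43. Slc37a3, which acts in lysosomes, had values of 9.46, 9.5 and 12.6 in tumor CD45+ and 0.818, 2.35 and 1.67 in tumor CD45- libraries.

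Slc2a1 (GLUT1), the glucose transporter of most dividing cells, had a different pattern. It was 10.4, 20.8 and 11.3 in tumor CD45+ and 12.2, 13 and 13.8 in anemia CD45+ libraries, and near 0 in the CD45- libraries of both conditions, at 0.127, 0.0899 and 0.156 and 0.145, 0.374 and 0.0458. In neonates the CD45- libraries were at 14.7, 19.6 and 5.43 and the CD45+ libraries at 11.1, 7.22 and 6.12, so the groups overlapped. The log2 fold changes of CD45+ against CD45- cells were 3.69 ± 0.36 (adjusted p = 1.55e-07), 3.57 ± 0.36 (adjusted p = 2.51e-07) and -0.52 ± 0.36 (adjusted p = 0.221). The neonatal value was -1.35 under median-ratio scaling and -1.33 under quantile normalization, lower and past the threshold in both. In the same 3 neonatal CD45- libraries the summed value of 5 hepatocyte genes (Alb, Apoa1, Ttr, Serpina1a and Fgb) was 118, 70.2 and 497, and in the neonatal CD45+ libraries 35.9, 58.2 and 205, whereas it was at most 1.34 in any library of tumor-bearing or anemic mice. The neonatal value was -0.85 ± 0.31 without replicate 3 of every group (adjusted p = 0.033, limma). The library with the highest hepatocyte sum had the lowest of the 3 Slc2a1 values; the part of such cells in the result was not tested.

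**Figure D3:**
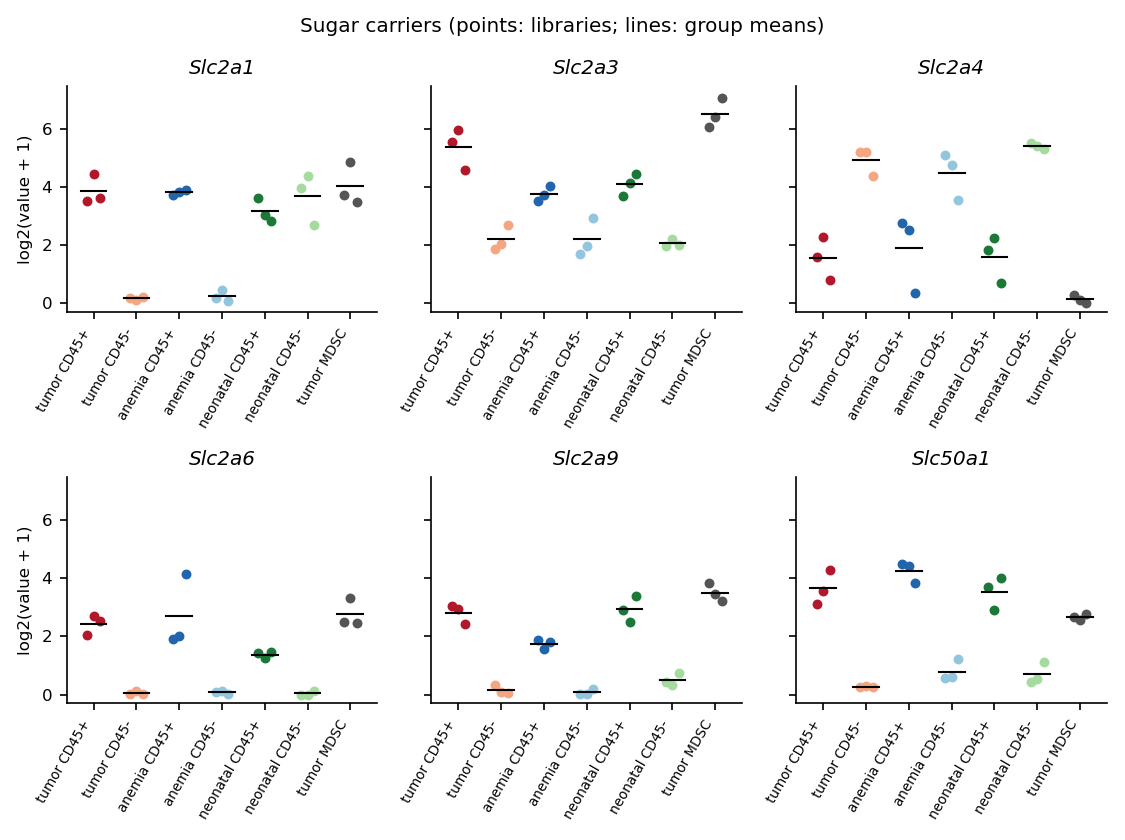
Each panel is 1 of 6 sugar carriers, each point 1 library and each line a group mean, with the vertical axis in log2(value + 1) and the 7 groups along the horizontal axis. Slc2a4 is high in CD45- libraries, while Slc2a3, Slc2a6, Slc2a9 and Slc50a1 are higher in CD45+ and MDSC than in CD45- libraries. In unlogged values, Slc2a6 is only 1.38 to 1.76 in neonatal CD45+ libraries and Slc2a9 only 1.99 to 2.67 in anemia CD45+ libraries. Slc2a1 is near 0 in CD45- libraries of tumor-bearing and anemic mice and has unlogged values between 5.43 and 19.6 in those of neonates.

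Mitochondrial carriers, the Slc25 family, link the matrix to the cytosol. Of 23, 15 were higher and 4 lower in CD45+ cells of tumor-bearing mice, 9 and 4 in anemia, and 11 and 3 in neonates. The higher shares of 65.2%, 39.1% and 47.8% stand against the 49.7%, 46.9% and 49.5% of all genes at the level rule, so those in anemia and neonates were not above the background. The lower shares of 17.4%, 17.4% and 13% lay near the 13.0%, 13.5% and 12.2% of those genes. With median-ratio scaling the tumor counts were 6 and 5, and with quantile normalization 5 and 6. Slc25a39, which imports glutathione into mitochondria, was 245, 237 and 131 in tumor CD45- and 44.6, 49.3 and 35.9 in tumor CD45+ libraries, with log2 fold changes of -2.17, -1.75 and -2.33 over the conditions. Slc25a51, the importer of NAD, had log2 fold changes of -1.97, -2.25 and -1.85, and the oxodicarboxylate carrier Slc25a21 of -2.55, -2.57 and -3.01. On the higher side, the ADP/ATP exchanger Slc25a4 was called in all 3 conditions, with log2 fold changes of 2.26, 1.92 and 2.31. Its relative Slc25a5 had log2 differences of 1.21, 0.06 and 0.94, and that in tumor-bearing mice passed, though not under median-ratio scaling. The phosphate carrier Slc25a3 had log2 fold changes of 1.23, 0.99 and 1.31, of which none passed under median-ratio scaling and all 3 passed under quantile normalization.

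Metal carriers moved in both directions. Slc11a1 (NRAMP1), which pumps iron and manganese out of the phagosome of macrophages and granulocytes, was 15.1, 15.7 and 40.5 in tumor CD45+, 9.79, 11.4 and 33.6 in anemia CD45+, 60.1, 43.4 and 43.5 in neonatal CD45+ and 16.1, 28.7 and 16.3 in MDSC libraries. Over the 9 CD45- libraries it was 0.391 to 4.01, and its log2 fold changes were 3.70, 2.99 and 3.64. Slc30a9, a zinc carrier, was lower in CD45+ cells in all conditions, with log2 fold changes of -1.87, -1.64 and -1.50. Slc30a10, a manganese exporter, was 12, 7.5 and 19.8 in the neonatal CD45- libraries, 1.22, 1.3 and 1.66 in tumor CD45- and 2.03, 2.29 and 2.45 in anemia CD45- libraries, and no higher than 0.917 in any CD45+ or MDSC library. The magnesium carrier Slc41a1 had log2 fold changes of 1.91, 2.48 and 1.62. Of the 16 metal carriers, 11 were higher and 2 lower in CD45+ cells of tumor-bearing mice, 9 and 3 in anemia and 11 and 3 in neonates. The higher shares were 68.8%, 56.2% and 68.8%, against 49.7%, 46.9% and 49.5% of genes at the level rule. The lower shares were 12.5%, 18.8% and 18.8%, against 13.0%, 13.5% and 12.2%. The tumor counts were 6 and 3 under median-ratio scaling and 3 and 4 under quantile normalization.

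Of 14 carriers of sodium, protons, chloride, bicarbonate and calcium, 11, 11 and 10 were higher in CD45+ cells in tumor-bearing, anemic and neonatal mice. The higher shares were 78.6%, 78.6% and 71.4%, against 49.7%, 46.9% and 49.5% of genes at the level rule. No member was lower without scaling, against 13.0%, 13.5% and 12.2% of those genes. The level rule favoured higher calls here too, since Slc8a1, Slc12a7 and Slc12a9 stayed under the level of 5 in every CD45- library. In anemia 1 was lower without replicate 3 of every group, and 1 or 2 were lower in each condition under either other scaling. With median-ratio scaling the tumor counts were 8 higher and 1 lower, and with quantile normalization 5 and 1. Slc8b1, which moves calcium out of mitochondria, was 24.9, 18.6 and 12.4 in tumor CD45+ and 0.59, 0.365 and 0.517 in tumor CD45- libraries, with log2 fold changes of 3.67, 2.81 and 3.64. Slc9a7, a sodium-proton exchanger of the Golgi, was 18.3, 17.5 and 18.7 in the anemia CD45+ libraries, 3.04, 3.08 and 13.1 in tumor CD45+, 2.53, 1.72 and 4.78 in neonatal CD45+ and 0.389, 0.31 and 0.674 in MDSC libraries, and at most 0.253 in any CD45- library. The third tumor library was the only one of the tumor CD45+ group near the anemia values. Its log2 fold change of CD45+ against CD45- cells in tumor-bearing mice was 1.98 ± 0.17 without replicate 3 of every group, compared with 2.56 ± 0.37 with it. Slc12a7, a potassium-chloride exporter, had log2 fold changes of 2.47, 3.16 and 2.80, and the plasma membrane calcium exchanger Slc8a1 of 1.84, 2.25 and 3.33, of which those in tumor-bearing and anemic mice did not pass under quantile normalization.

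Carriers of peptides, nucleosides and other solutes gave the remaining large differences. Slc28a2, which takes up purine nucleosides with sodium, had the largest log2 fold change of the members in tumor-bearing mice. It was 23.3, 26 and 26.6 in tumor CD45+ and 25.8, 29.4 and 28.9 in anemia CD45+ libraries, 5.62, 3.8 and 10.7 in neonatal CD45+ libraries, 27, 33.4 and 41.4 in MDSC and at most 0.42 in any CD45- library. Its log2 fold changes were 4.47 ± 0.27 (adjusted p = 6.21e-10), 4.54 ± 0.27 (adjusted p = 7.52e-10) and 2.70 ± 0.27 (adjusted p = 2.92e-07). The equilibrative nucleoside carrier Slc29a1 was lower in CD45+ cells in tumor-bearing mice and in anemia (log2 fold changes -1.51 and -1.39), while the neonatal difference of -0.12 did not pass. Slc15a3, a peptide and histidine carrier of lysosomes, was 58.3, 43.2 and 39.1 in neonatal CD45+ libraries, against 5.88, 8.82 and 11.7 in tumor CD45+ and 4.04, 7.4 and 26.5 in anemia CD45+ libraries. Its log2 fold changes against CD45- cells were 3.01, 3.17 and 3.89. The third anemia CD45+ library was the highest of that group, and without replicate 3 of every group the anemia value was 2.45 ± 0.28. Slc44a2, a choline carrier, had log2 fold changes of 3.33, 3.74 and 2.33, the vitamin C carrier Slc23a2 of 3.39, 3.31 and 2.63 and the fatty acid carrier Slc27a4 of 3.67, 1.92 and 3.21; the Slc27a4 value in anemia did not pass under quantile normalization. The organic ion carrier Slc22a15 had log2 fold changes of 3.43, 2.07 and 2.17.

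The 13 members with Slc35 symbols were grouped here as nucleotide sugar carriers, a grouping by family and not by the solute of each. Of these, 9, 7 and 9 were higher in CD45+ cells (69.2%, 53.8% and 69.2%, against 49.7%, 46.9% and 49.5% of genes at the level rule). None was lower, against 13.0%, 13.5% and 12.2% of those genes, while 1 to 3 were lower in each condition under either other scaling. In tumor-bearing mice median-ratio scaling left 3 higher and 1 lower, and quantile normalization 3 and 3. Slc35c2 had log2 fold changes of 3.22, 2.89 and 2.77, with CD45+ values of 13.4 to 22.7 and CD45- values of 0.73 to 2.52. Slc35b1 had log2 differences of 0.08, 0.67 and -0.16, none of which passed. The cystine carrier Slc7a11 had log2 differences of 1.84 ± 1.10, 2.09 ± 1.10 and 1.96 ± 1.10, none of which passed, and 1 anemia CD45+ library lay far from the other two, at 1.64, 0.932 and 125. Its values without replicate 3 of every group were 2.37 ± 0.33, 0.59 ± 0.33 and 1.57 ± 0.33, of which those in tumor-bearing and neonatal mice passed. Slc48a1, a haem carrier of endosomes, had log2 differences of -1.53, -1.0 and -0.07 in tumor-bearing, anemic and neonatal mice, and none passed. In tumor-bearing mice it was 5.89 to 7.61 in CD45+ and 19.5 to 21.8 in CD45- libraries. It ran from 10.4 to 82.7 in anemia CD45- and from 7.88 to 59.9 in neonatal CD45+ libraries. The fit estimates 1 spread per gene from all its groups.

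**Figure D4:**
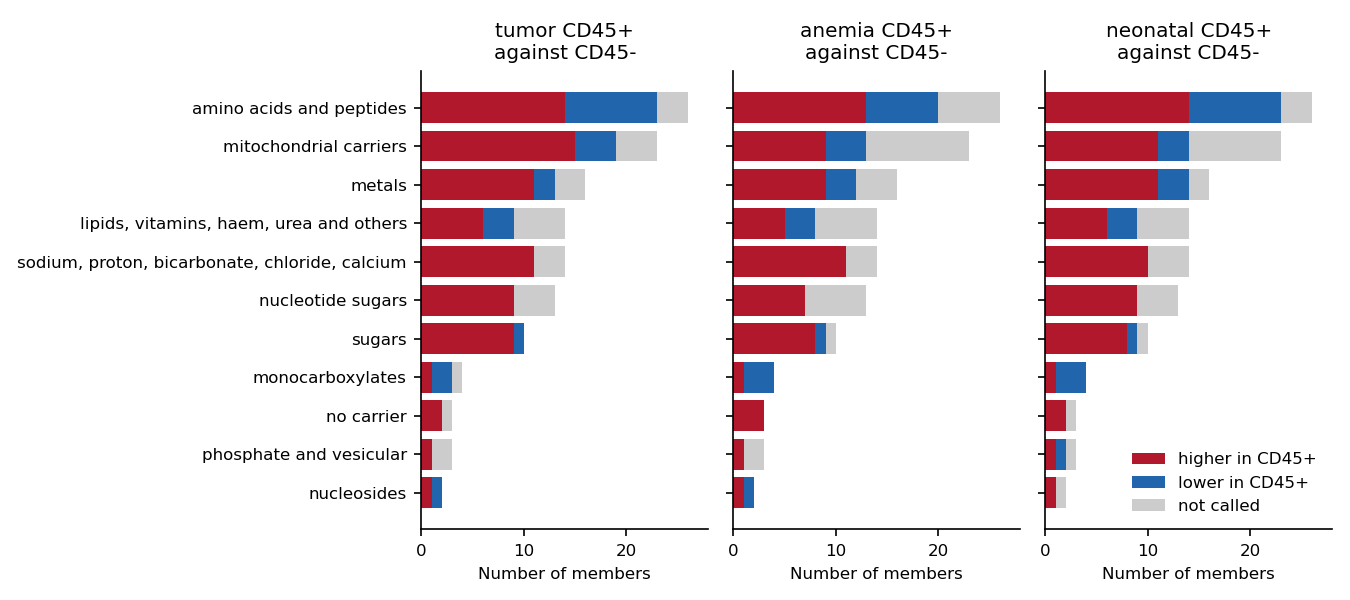
Stacked bars, starting at 0, give the number of members called higher, called lower or not called in CD45+ against CD45- cells, with 1 row per role and 1 panel per condition, from the limma fit without scaling. The ion role (sodium, proton, bicarbonate, chloride, calcium) and the nucleotide sugar role, made of the Slc35 members, have no lower member in any condition. Of genes at the level rule 13.0%, 13.5% and 12.2% were lower in tumor-bearing, anemic and neonatal mice. Under either other scaling 1 or 2 ion carriers and 1 to 3 Slc35 members are lower. Without replicate 3 of every group 1 ion carrier is lower in anemia. The amino acid role has the most, 9 of 26 in tumor-bearing mice.

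Tumor CD45+ cells were then set against the MDSC of tumor-bearing mice in a fit of the 9 libraries from those mice. Of the 128 carriers 12 were higher and 2 lower in CD45+ cells, 10.9% against 6.99% of tested genes at the level rule (5.91% higher and 1.08% lower) and 6.42% of all 10251 tested genes. Of the 12, those lower in CD45+ than in CD45- cells in all 3 conditions were Slc43a1, Slc6a9, Slc14a1, Slc38a5, Slc25a39, Slc2a4, Slc16a1, Slc25a21 and Slc22a23, so tumor CD45+ cells lay between CD45- cells and MDSC for these genes. Slc43a1 was 2.05, 0.788 and 0.482 in MDSC, and its log2 fold change of CD45+ cells against MDSC was 2.92 ± 0.43 (adjusted p = 0.00345). Slc6a9 was 1.5, 0.833 and 0.134 in MDSC, with a log2 fold change of 2.66 ± 0.51 (adjusted p = 0.0124). Slc14a1 was 0.603, 0.538 and 0.392 in MDSC, with a log2 fold change of 2.28 ± 0.29 (adjusted p = 0.0019). Erythroid markers moved with them: 9 of 10 were higher in tumor CD45+ cells than in MDSC, as were 7 of 8 B cell, 6 of 8 T and NK cell and 2 of 4 dendritic cell markers, and 3 of 11 tested neutrophil markers were lower. Their part in the carrier differences was not tested.

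Slc9a7 and Slc45a3 were also higher, with log2 fold changes of 2.08 and 1.52. The 2 lower carriers were Slc48a1, at 6.24, 7.61 and 5.89 in CD45+ and 31.1, 24.2 and 16.3 in MDSC libraries (log2 fold change -1.68 ± 0.25, adjusted p = 0.00377), and Slc16a3 (log2 fold change -1.13 ± 0.27, adjusted p = 0.0359). Median-ratio scaling gave 8 higher and 6 lower, and quantile normalization 5 and 3. All 14 kept their direction under both scalings, but Slc16a1, Slc2a4 and Slc38a5 passed under neither. Of the alternatives run for each gene, 17 in number, the call was kept in 17 for Slc14a1, 16 each for Slc43a1 and Slc48a1, 13 each for Slc6a9 and Slc25a39, 12 for Slc38a5, 11 for Slc22a23, 7 for Slc16a3, 6 each for Slc16a1 and Slc25a21 and 5 for Slc2a4, and in 8 of 13 for Slc9a7 and 12 of 13 for Slc45a3, which were not tested in the rest. The count of called carriers was 7 without tumor CD45+ replicate 2, 7 without MDSC replicate 2 and 4 without MDSC replicate 3.

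Between conditions, fewer carriers differed within CD45+ cells. Tumor against anemia gave 7 higher and 3 lower (7.81%, against 10.1% of genes at the level rule, 6.20% higher and 3.95% lower). The summed neutrophil markers were 11803 to 30313 in tumor and 491 to 2814 in anemia CD45+ libraries, with 11 of 11 tested neutrophil markers higher in tumor and 7 of 8 B cell markers lower; their part was not tested. Slc27a4 was 18.1, 20.2 and 6.41 in tumor and 3.98, 3.32 and 3.61 in anemia CD45+ libraries, and 37, 36.4 and 24.3 in MDSC (log2 fold change of tumor against anemia 1.64 ± 0.30, adjusted p = 0.00194). Slc2a3 was also higher in tumor (log2 fold change 1.59 ± 0.36, adjusted p = 0.00837), as was Slc22a15 (log2 fold change 1.42 ± 0.28, adjusted p = 0.00302). Slc9a7 was lower in tumor (log2 fold change -1.64 ± 0.37, adjusted p = 0.0077). The count of 10 became 5 without tumor CD45+ replicate 1, 5 without replicate 2, 6 without anemia CD45+ replicate 2, 20 without tumor CD45+ replicate 3 and 46 without replicate 3 of every group.

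Tumor against neonatal CD45+ cells gave 5 higher and 7 lower carriers (9.38%, against 5.38% of genes at the level rule, 2.26% higher and 3.12% lower). Slc28a2 was higher in tumor (log2 fold change 1.87 ± 0.27, adjusted p = 2.42e-04) and the amino acid exchanger Slc7a8 lower, at 1.2, 1.14 and 4.27 against 12.8, 9.33 and 8.81 (log2 fold change -1.94 ± 0.32, adjusted p = 8.58e-04). Slc7a8 met the level rule only through its 3 neonatal CD45+ libraries, so the rule itself favoured its contrasts with neonates. Slc15a3 was lower in tumor as well (log2 fold change -2.31 ± 0.43, adjusted p = 0.00253). The summed monocyte and macrophage markers were 239 to 1196 in tumor, 210 to 392 in anemia and 1311 to 2208 in neonatal CD45+ libraries, and their part was not tested. The split was 6 and 5 with median-ratio scaling and 7 and 8 with quantile normalization. The count of 12 became 7 without tumor CD45+ replicate 1 or replicate 2, 19 without replicate 3, 6 without neonatal CD45+ replicate 1, 7 without neonatal replicate 2 and 36 without replicate 3 of every group.

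Anemia against neonatal CD45+ cells gave 9 higher and 15 lower carriers (18.8%, against 18.1% of genes at the level rule, 7.94% higher and 10.2% lower), a share near the background. Slc9a7 had a log2 fold change of 2.33 ± 0.37 (adjusted p = 2.06e-04) and Slc28a2 of 2.01 ± 0.27. Lower in anemia were Slc15a3, with -2.16, Slc7a8, with -2.03, the zinc carrier Slc39a11, with -1.86, and Slc11a1, with -1.57. The level rule favoured the Slc7a8 difference here too. The Slc11a1 call was kept in 22 of 26 alternatives (highest adjusted p = 0.103, limma). The summed neutrophil markers were 491 to 2814 in anemia and 9702 to 12207 in neonatal CD45+ libraries, and 11 of 11 tested neutrophil, 7 of 10 monocyte and macrophage and 5 of 5 mast cell, basophil and eosinophil markers were lower in anemia. Higher in anemia were 8 of 8 B cell, 8 of 9 T and NK cell and 4 of 5 dendritic cell markers, and the part of these in the carrier results was not tested. Scaling moved the split to 11 and 12 (median ratio) and 16 and 18 (quantile), and without anemia CD45+ replicate 2 the count was 15 and without replicate 3 of every group 56. These 3 comparisons share their libraries in pairs and are not independent of each other.

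Within CD45- cells, no carrier passed limma's adjusted p of 0.05 between tumor and anemia (0.165% of genes at the level rule did), and 7 carriers had an unadjusted p under 0.05; without replicate 3 of every group 5 were called. Neonatal CD45- cells differed in a few. Slc2a1 was lower in tumor than in neonatal CD45- cells (log2 fold change -3.51 ± 0.36, adjusted p = 1.11e-05) and lower in anemia (log2 fold change -3.43 ± 0.36, adjusted p = 1.43e-05). Slc30a10 was lower in both too, with log2 fold changes of -2.47 ± 0.26 (adjusted p = 1.52e-05) and -2.02 ± 0.26 (adjusted p = 1.41e-04). It met the level rule only through the 3 neonatal CD45- libraries, so the rule itself favoured these differences. Slc3a2 was higher in tumor than in neonatal CD45- cells (log2 fold change 1.20 ± 0.29, adjusted p = 0.033). In all, 5 carriers were called in tumor against neonatal CD45- cells (3.91%, against 2.06% of genes at the level rule) and 4 in anemia against neonatal (3.12%, against 3.90%), and both comparisons share the neonatal libraries and their hepatocyte sums given above. The count of 5 became 3 without tumor CD45- replicate 1, and 2 without tumor replicate 2, neonatal replicate 1 or neonatal replicate 2. The count of 4 became 2 without anemia CD45- replicate 1 or 2 or neonatal replicate 1 or 2, and 8 without neonatal replicate 3. Without replicate 3 of every group the counts were 22 and 28.

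**Figure D5:**
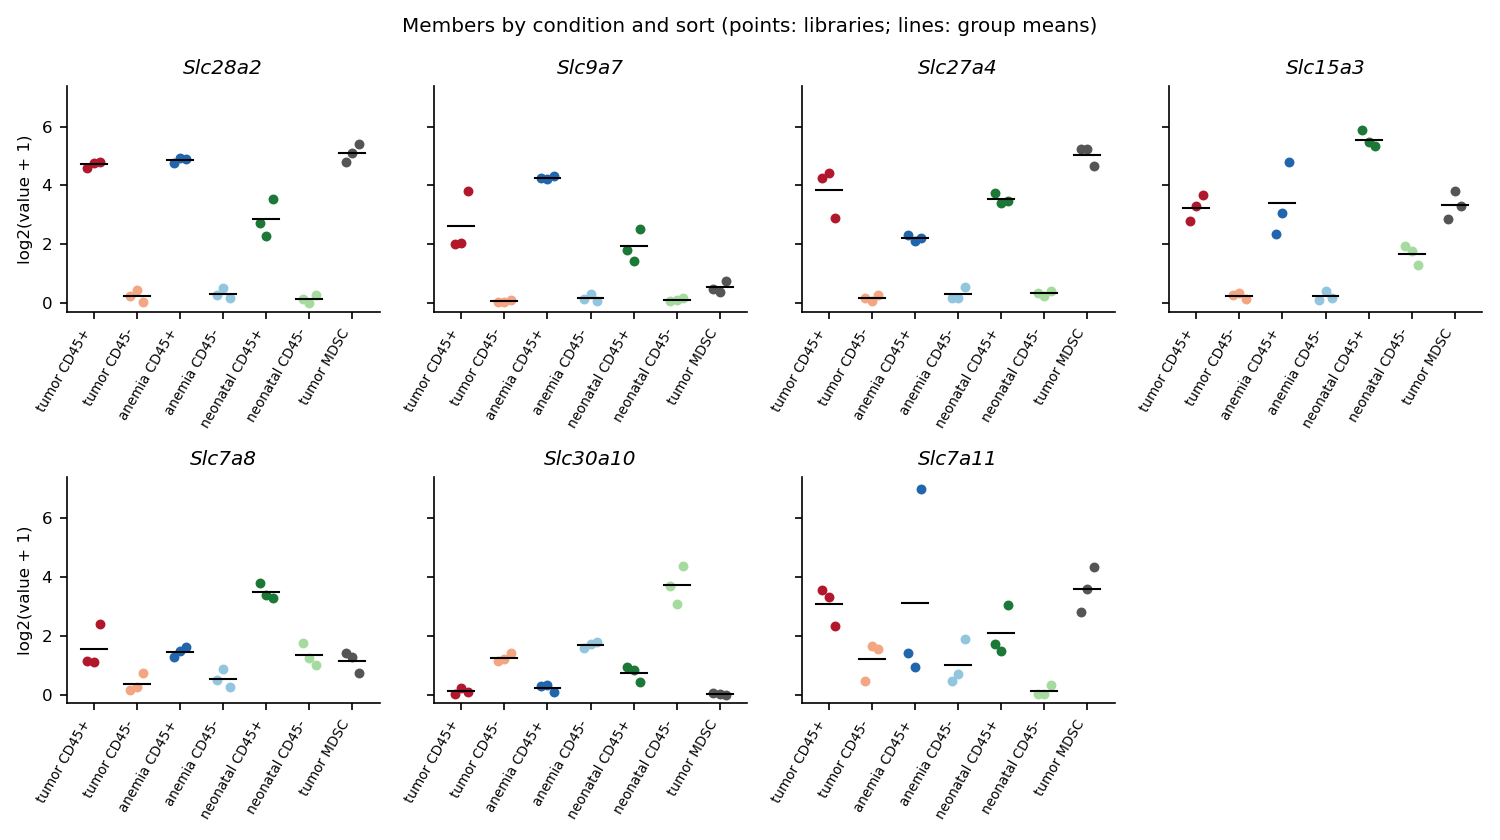
Each panel is 1 carrier, each point 1 library and each line a group mean, with the vertical axis in log2(value + 1) and the 7 groups along the horizontal axis; unlogged values are quoted here. Slc9a7 is between 17.5 and 18.7 in the 3 anemia CD45+ libraries, Slc15a3 is between 39.1 and 58.3 in the neonatal CD45+ libraries, and Slc30a10 is between 7.5 and 19.8 in the neonatal CD45- libraries.

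The difference between conditions in the CD45+ against CD45- contrast was tested with interaction terms. Tumor minus anemia gave 1 carrier (0.781%, against 2.38% of genes at the level rule), tumor minus neonatal 3 (2.34%, against 0.990%) and anemia minus neonatal 7 (5.47%, against 6.11%). Slc2a1 had the largest: the contrast was 4.21 ± 0.51 log2 units larger in tumor-bearing mice than in neonates (adjusted p = 2.31e-04) and 4.09 ± 0.51 larger in anemia than in neonates (adjusted p = 1.77e-04). The first count ran from 0 to 9 and the second from 1 to 10 when 1 library was left out, both highest without tumor CD45+ replicate 3; the third was 11 without that library. Without replicate 3 of every group the 3 counts were 20, 17 and 25.

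Transport genes under other names and partners of carriers, from a list of 51 genes in the table of which 49 were tested, moved in both directions. In CD45+ against CD45- cells 28 were higher and 9 lower in tumor-bearing mice, 22 and 8 in anemia and 25 and 5 in neonates, with median log2 fold changes of 1.22, 0.72 and 0.88. The higher shares were 57.1%, 44.9% and 51.0%, near the 50.2%, 47.4% and 49.6% of all tested genes. The lower shares were 18.4%, 16.3% and 10.2%, against 10.9%, 11.3% and 10.3% of all tested genes. The splits were 20 and 12, 14 and 12, and 18 and 12 with median-ratio scaling, and 17 and 14, 13 and 14, and 15 and 11 with quantile normalization. Basigin (Bsg), the chaperone of Slc16a1 and Slc16a3, was 207 to 339 over the 9 CD45- libraries and 29.7 to 84.8 over the 9 CD45+ libraries, with log2 fold changes of -2.43, -2.27 and -2.04. Embigin (Emb), a related chaperone, had log2 fold changes of 5.34, 4.31 and 4.86. Mfsd2b, which exports sphingosine 1-phosphate from red cells, had -3.29, -2.91 and -2.92, and the ammonium channel Rhag, one of the erythroid markers, -3.70, -2.58 and -3.84. Unc93b1, which escorts nucleic acid sensors to endosomes, had 4.92, 4.89 and 3.86. Each of these 5 genes passed the threshold in the same direction in all 3 conditions under each scaling. Against MDSC, 1 of 47 tested was higher and 2 lower in tumor CD45+ cells.

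Summed over the 128 members, the unlogged value was 2328 ± 151 (SD, n = 3) in tumor CD45- libraries and 1718 ± 77.9 in tumor CD45+ libraries, 2364 ± 385 and 1781 ± 80.5 in anemia, 2154 ± 198 and 1728 ± 45.1 in neonates, and 1588 ± 35.7 in MDSC, or 0.537% to 0.926% of all values in a library. The 26 members grouped as amino acid and peptide carriers summed to 624 to 1224 in the CD45- libraries, 347 to 498 in the CD45+ libraries and 232 to 296 in MDSC. The level rule cut through a continuous range. Members just inside, with 3 libraries at the level, were 11 genes such as Slc20a2 (the third highest value 5.13), Slc36a4 (5.12) and Slc7a8 (8.81), and symbols just outside, with 2 libraries, were 10 such as Slc29a3 (4.94), Slc37a4 (4.94) and Slc16a9 (2.86). A further 13 symbols reached the level in 1 library and 114 in none.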

How the data were processed

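Per the labels' protocols, libraries of 21 sorted samples (7 groups of 3) were built with an Illumina TruSeq kit; that text names retinas as the source, whereas the tissue label says spleen. The authors deposited 1 table of log2 expression values. The submitters' processing notes name Bowtie 0.12.2 and mm8; the quantification tool, annotation and unit behind the log2 values are not given in the sources used here. The 14273 rows held 14265 symbols; of 8 repeated ones the row with the highest mean was kept. Blanks (23668 cells, 7.90%) were taken as 0, so a blank can also be a failed estimate; 4 members had one. Depth is unknown.

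limma 3.58.1 (R 4.3.3, statmod 1.5.0; trended, robust) was fitted to log2(value + 1) of genes with a value of 1 or more in at least 3 libraries of the fit: the 18 Ter119+CD71+ libraries, or the 9 tumor libraries for MDSC. Tests were two-sided with Benjamini-Hochberg adjustment over all tested genes, and called means adjusted p under 0.05. All 128 members were tested in both fits. On simulated data for tumor CD45+ against CD45- cells, the fit recovered 29% of genes changed by 1 and 83% of genes changed by 2 on the log2 scale with 8 false calls among 10621 tested. Against MDSC it recovered 14% and 79%, with 7 false calls among 10227. The simulated noise was independent between libraries, and 100 genes of each size were changed in tumor CD45+ libraries alone. No library-wide shift or shared replicate 3 deviation was simulated, so the false calls do not measure the error of the real contrasts.

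One carrier is not reported by name here, though counts include it. Members and gene lists were chosen with earlier results of these data known. Members were named where they passed a contrast, did not overlap between groups and averaged 10 or more in the group where they were higher (the 8 largest changes each way for CD45 and MDSC contrasts, 4 otherwise), or were among the 4 with the highest mean in their role; Slc25a4, Slc2a9, Slc41a1, Slc45a3 and Slc7a11, and the members named for being called against MDSC or in an interaction below these ranks, were chosen after their values were seen. Replicate numbers paired CD45+ with CD45- libraries within a condition (deviation correlation over 0.1 in all 9 pairs, lowest 0.109), a hint from the data and not the design; differently numbered pairs of replicates 1 and 2 reached 0.139, and pairs of replicate 3 with 1 or 2 were at most -0.12, so the correlations mainly set replicate 3 apart. Upstream sequences came from RefSeq, GRCm38.p6. Alternatives were the pseudocount, the filter, 2 scalings, a joint fit, a replicate block and left-out replicates.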

Additional observations from a re-analysis of the deposited data

Results flagged for a closer look

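Some carriers had a CD45+ against CD45- contrast that differed between conditions by the interaction term of the limma fit (adjusted p under 0.05). Differences are on the log2(value + 1) scale, positive where the signed log2 fold change was higher in the first condition named. For Slc30a10, lower in CD45+ cells in all 3 conditions, a positive difference means a less negative contrast in that first condition. Between tumor and neonatal mice these were Slc2a1 at 4.21 (adjusted p = 2.31e-04), Slc30a10 at 1.86 (adjusted p = 0.0173) and Slc28a2 at 1.77 (adjusted p = 0.0294). Between anemia and neonatal mice, Slc2a1 differed by 4.09 (adjusted p = 1.77e-04), Slc9a7 by 2.27 (adjusted p = 0.0133), Slc28a2 by 1.84 (adjusted p = 0.00726), Slc30a10 by 1.53 (adjusted p = 0.0172) and Slc44a2 by 1.41 (adjusted p = 0.0425). Slc45a3 and Slc39a11 differed the other way, by -1.69 (adjusted p = 0.00572) and -1.96 (adjusted p = 0.0122). Between tumor and anemia, Slc27a4 differed by 1.75 (adjusted p = 0.0401).

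For Slc2a1 the CD45- group moved, from 0.156 or less in the tumor CD45- libraries to 5.43 or more in the neonatal ones. Slc30a10 also differed through its neonatal CD45- libraries, at 12, 7.5 and 19.8, the only 3 in which it reached the level of the rule. For Slc28a2, Slc9a7 and Slc44a2 the CD45+ libraries carried the difference: Slc44a2 was 47.1, 50.9 and 55.4 in anemia and 20.9, 14.2 and 31.2 in neonatal CD45+ libraries. Slc45a3 was 8.38, 5.87 and 5.53 in neonatal and 1.24, 1.53 and 0.569 in anemia CD45+ libraries, and Slc39a11 was 16, 6.19 and 11 and 2.36, 1.54 and 2.55. Slc45a3 reached the level in those 3 neonatal libraries only. For Slc30a10 and Slc45a3 the level rule itself thus favoured a difference from neonates. With a pseudocount of 0.1 none of these interactions passed except those of Slc2a1 and Slc39a11. Slc2a1 and Slc39a11 passed in all 26 alternatives run. Between anemia and neonatal mice Slc9a7, Slc28a2, Slc30a10 and Slc45a3 passed in 25 of 26 and Slc44a2 in 11. Between tumor and neonatal mice Slc30a10 passed in 21 of 26 and Slc28a2 in 16, and the tumor and anemia difference of Slc27a4 passed in 8 of 26 (highest adjusted p = 0.133, limma).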

How the results depend on the processing

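Leaving out 1 library at a time gave 86 to 104 called members for tumor CD45+ against CD45- cells, 80 to 96 for anemia and 87 to 101 for neonates, and 4 to 13 against MDSC. Within CD45+ cells the ranges were 5 to 20 (tumor against anemia), 6 to 19 (tumor against neonatal) and 15 to 27 (anemia against neonatal). Within CD45- cells they were 0 to 0, 2 to 6 and 2 to 8, and for the interactions 0 to 9 (tumor minus anemia), 1 to 10 (tumor minus neonatal) and 6 to 11 (anemia minus neonatal). The cause of the changes below was not tested.

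A pseudocount of 0.1 gave 6, 6 and 15 members within CD45+ cells (tumor against anemia, tumor against neonatal, anemia against neonatal), 10 and 7 within CD45- cells (tumor and anemia against neonatal) and 0, 1 and 2 for the interactions in the order above. A pseudocount of 5 gave 7 against MDSC, 2 and 2 within CD45- cells, and 3 (tumor minus anemia) and 11 (anemia minus neonatal) for interactions. Median-ratio scaling gave 8 and 7 within CD45- cells and 0 for tumor minus anemia, and quantile normalization gave 8 against MDSC. Without replicate 3 of every group, a choice made after seeing the data, the counts were 7 against MDSC, 46, 36 and 56 within CD45+ cells, 5, 22 and 28 within CD45- cells, and 20, 17 and 25 for the interactions. The summed level under median-ratio scaling was 1273 for tumor CD45+, 3461 for tumor CD45-, 1316 for anemia CD45+, 3470 for anemia CD45-, 1225 for neonatal CD45+, 2950 for neonatal CD45- and 1467 for MDSC libraries.

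With the replicate block the CD45+ against CD45- counts were 105, 93 and 100, against 102, 90 and 97 without it, and all of the latter remained called; tumor minus anemia went from 1 to 2 members and 16 were called against MDSC. Across all groups 35 of 63 same-numbered pairs had a deviation correlation over 0.1 (median 0.111, against -0.0901 for different numbers), so the rule for pairing was not met across conditions. Called members that changed sign under at least 1 alternative numbered 15 of 102, 8 of 90 and 10 of 97 in the CD45+ against CD45- contrasts of tumor-bearing, anemic and neonatal mice and 0 in the other contrasts. Slc25a30, singled out after its values were seen, was called the other way in neonates under quantile normalization, at -0.54 against 0.59. For values of unknown depth, a member near 0 in a group gives a fold change that depends on the pseudocount.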
